A study of Homo sapiens with 7 samples.

Results

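The genes examined here were 10 genes of the cyclin D, CDK and RB axis of the G1 phase, taken by symbol, with earlier results of these data already known. They were the D-type cyclins CCND1, CCND2 and CCND3, the kinases CDK4, CDK6 and CDK2, the pocket protein gene RB1, and the inhibitor genes CDKN2A, CDKN2C and CDKN1B. All 10 were found among the 20056 gene symbols that had values. They were read in HCT116, a human colon cancer cell line often used because it is near diploid. The cells were untreated and in exponential growth, in serum-free medium with epidermal growth factor, insulin and transferrin, so no group carries a genotype or drug that the others lack, except that cells for polysome isolation were held in cycloheximide shortly before lysis. Transcription rate (TR) was measured by GRO-seq in 2 libraries, mRNA abundance (RA) by RNA-seq in 3 libraries and translation activity (TA) by polysome profiling in 2 libraries, 7 in all. GRO-seq labels the RNA made by polymerases already engaged on a gene, and polysome profiling collects the mRNA that travels with ribosomes in a sucrose gradient. Values are RPKM, reads scaled to the exon length of the gene and to the reads of the library, which give a share of a library and not molecules per cell. The replicates are described in the study as biological, and p-values measure the spread between these libraries.

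D-type cyclins bind CDK4 or CDK6 in response to growth signals, and the complexes phosphorylate the RB protein. Unphosphorylated RB holds E2F transcription factors, and its phosphorylation, completed by cyclin E with CDK2, releases them to switch on genes for DNA synthesis. INK4 proteins, among them p16 from CDKN2A and p18 from CDKN2C, bind CDK4 and CDK6, while the p27 protein from CDKN1B binds cyclin-CDK2 complexes and also associates with cyclin D complexes. CDKN2A also encodes p14ARF, a regulator of p53, from another reading frame, and a gene-level value cannot tell them apart.

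The libraries held 3391897 and 5629982 reads for TR, between 20299018 and 22532134 for RA, and 22421062 and 30805391 for TA. These sizes were worked out from the deposited values. The colon epithelial markers EPCAM, CDH1, KRT8, KRT18, KRT19 and CLDN7 were read in every library, and PTPRC, CD3E and PECAM1, markers of blood and endothelial cells, were below 1 RPKM in all 7. Among the other markers of other cell types, ALB was below 1 RPKM throughout, HBB reached 4.71 RPKM in TR replicate 1, and COL1A1 lay between 3.33 and 18.9 RPKM. The RA libraries stood apart from each other for the MCM genes of DNA replication. All 6 MCM genes (MCM2 to MCM7), which encode the replicative helicase and were added as a yardstick after the data were seen, were highest in RA replicate 1, lower in replicate 3 and lowest in replicate 2, with MCM4 at 71.2, 27.0 and 9.59 RPKM. In the same genes TA replicate 2 was above TA replicate 1.

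Of the 9 expressed members, 7 had RA in this same order, whereas 26.1% of the 14305 expressed genes did. The order was also frequent among the 32 other genes of G1 control described below, with 15 of them (46.9%). In 6 of the 9 members, TA replicate 2 was also above TA replicate 1, against 19.9% of all expressed genes and 14 of the 32 other genes (43.8%). CDK6 and CCND1 did not follow the RA order, and RB1 followed it in RA but not in TA. The spread was widest for CDKN2C, whose highest RA value was 18.1 times its lowest, and the ratio of highest to lowest was 3.08 for CDK6, 2.82 for CCND3 and 2.38 for CDK2. For CCND1 and CDKN1B it was 1.30 and 1.28. In bulk libraries, fewer cells holding an mRNA and less of it per cell cannot be told apart. Whether the makeup of the cultures had a part in this spread was not tested.

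**Figure D1:**
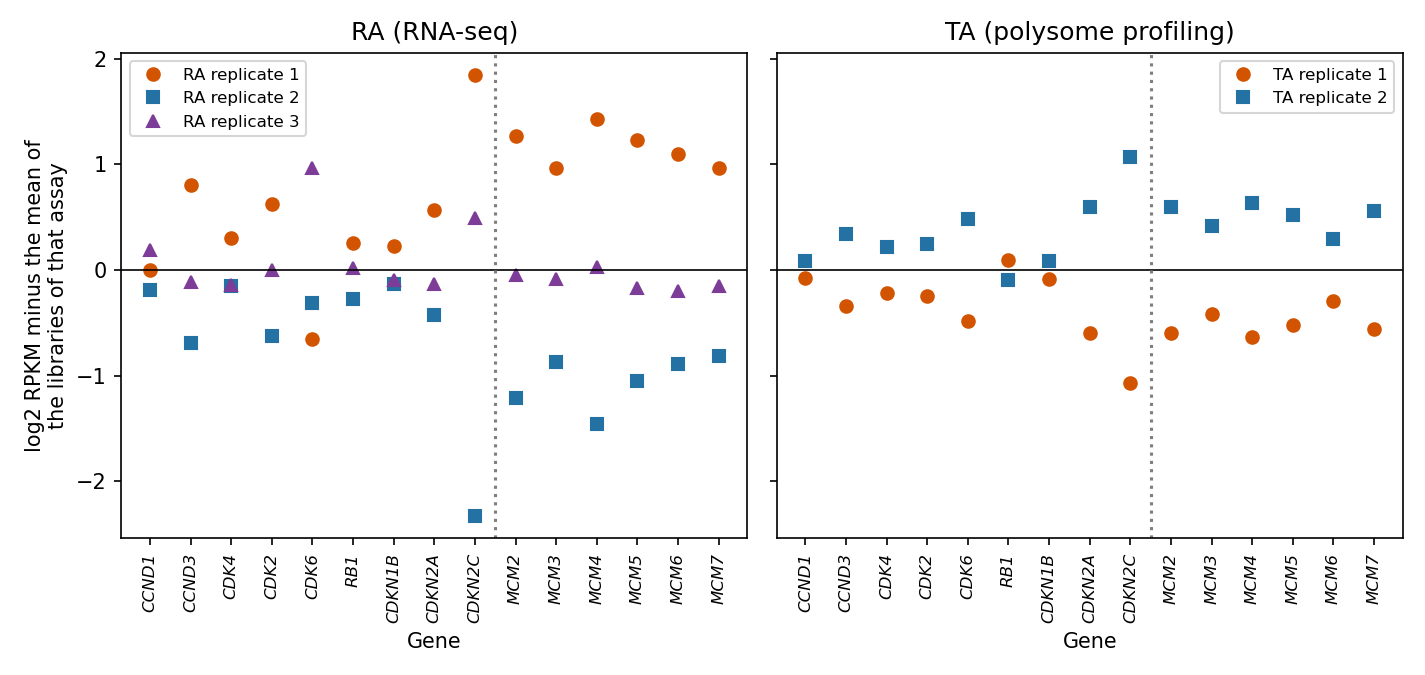
Deviation of each RA library (left) and each TA library (right) from the mean of its assay, in log2 RPKM, for the 9 expressed members and, right of the dotted line, the 6 MCM genes. RA replicate 1 is highest and RA replicate 2 lowest for 7 of the 9 members, most of all CDKN2C, and for all 6 MCM genes.

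The members differ widely in their mRNAs. On GRCh37, the genome that the authors call hg19, CCND1 lies at chr11:69455924-69469242 on the plus strand and RB1 at chr13:48877880-49173572 on the plus strand. CDK4 lies at chr12:58141510-58149796 and CDK6 at chr7:92234235-92465887, both on the minus strand. CDKN1B is at chr12:12838432-12875303 and CDKN2C at chr1:51426417-51440306, both on the plus strand, and CDKN2A is at chr9:21967751-21995300 on the minus strand. CCND2 is at chr12:4378937-4414519 and CDK2 at chr12:56360565-56366573, both on the plus strand, and CCND3 is at chr6:41902672-42018095 on the minus strand. In the canonical transcripts of GENCODE 44, untranslated regions (UTRs) made up 91.6% of the CDK6 mRNA, 79.0% of CCND1 and 75.2% of CDKN1B, against a median of 47.9% over 19553 coding transcripts. RB1, with 41.5%, was the lowest among the members, and CDKN2C (49.0%), CDK4 (51.1%) and CDKN2A (51.8%) were near the median. Taking all GENCODE 44 exons of a gene together, those of CDK4 (3094 bases) are shared over 44.2% of their length with TSPAN31 on the opposite strand. Those of CCND1 (4761 bases) are shared over 10.4% with LTO1, listed in the deposited values as ORAOV1. The exon lengths behind the deposited values, worked out from them, were 2002 bases for CDK4 and 4289 for CCND1. The shared part of the counted exons is therefore not known. The strand setting of the counting is not given in the sources used here, so reads in the shared exons cannot be assigned to one strand from these values. TR was 70.0 and 89.2 RPKM for TSPAN31, while its RA and TA stayed between 9.20 and 16.3 RPKM.

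The pentamer ATTTA, the core of AU-rich elements that many short-lived mRNAs carry, was searched for on the mRNA strand only, with overlapping matches counted. It occurs in 67.9% of 19085 annotated 3′ UTRs. RB1 had 12 matches in 1819 bases, where 3′ UTRs of similar length had a median of 3, and CDKN1B had 7 in 1342 bases against a median of 2. CCND1 had 7 in 3192 bases, equal to the median of its length class, and CDK6 had 26 in 10219 bases against 22. No match was found in the 798 bases of CDK4, where the median was 1. The stretches below are shown for RB1 and CDKN1B, which both had more pentamers than the median for their length. CCND1 and CDK6 are shown as the other members with 7 or more matches in a 3′ UTR of a gene that passed the filter. Each comes from the first place in the 3′ UTR where a run of 30 bases holds the most matches. Where several neighbouring runs did so, the middle run is shown. All are read 5′ to 3′ from the GENCODE transcript, with the pentamers in capitals. They lie at chr13:49054595-49054624 (RB1), chr12:12874868-12874897 (CDKN1B), chr11:69467449-69467478 (CCND1) and chr7:92243704-92243733 (CDK6) on GRCh37, on the strand of each gene. A match describes letters and not a working element. A search for the longer AU-rich nonamer TTATTTATT found 1 match in CDK6 and 0 in the other members. It occurs in 8.48% of the annotated 3′ UTRs, and in 39.9% of those similar in length to that of CDK6. Whether any match has a part in RA over TR was not tested.
RB1: taATTTAtatgtatatttttttaATTTAac
CDKN1B: taATTTAaagcttactctgtccATTTAtcc
CCND1: ATTTAtagttaaggctaaaaagtatATTTA
CDK6: ctATTTAgtcttcagaatgctgaATTTAct

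CCND1 was by far the most abundant member at every step and CCND2 was close to absent. Mean TR, RA and TA of CCND1 stood at percentiles 99.0, 99.1 and 99.1 of the expressed genes. Below it, the order by TR was CDK4, CDKN1B, CCND3, CDK2, CDKN2A, CDKN2C, RB1 and CDK6. By TA it was CDK2, CDK4, CCND3, CDKN1B, RB1, CDKN2A, CDK6 and CDKN2C, so that RB1 moved from the eighth place to the sixth and CDKN1B from the third to the fifth. Several neighbours were not separated by their libraries: CDK2 and CDKN2A, and RB1 and CDK6, overlapped in TR. In RA, CDKN2A overlapped CDKN1B, CDKN1B overlapped CCND3, CCND3 overlapped RB1, and CDKN2C overlapped CDK6. In TA the overlapping neighbours were CDK2 with CDK4, CCND3 with CDKN1B, RB1 with CDKN2A, and CDK6 with CDKN2C.

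**Figure D2:**
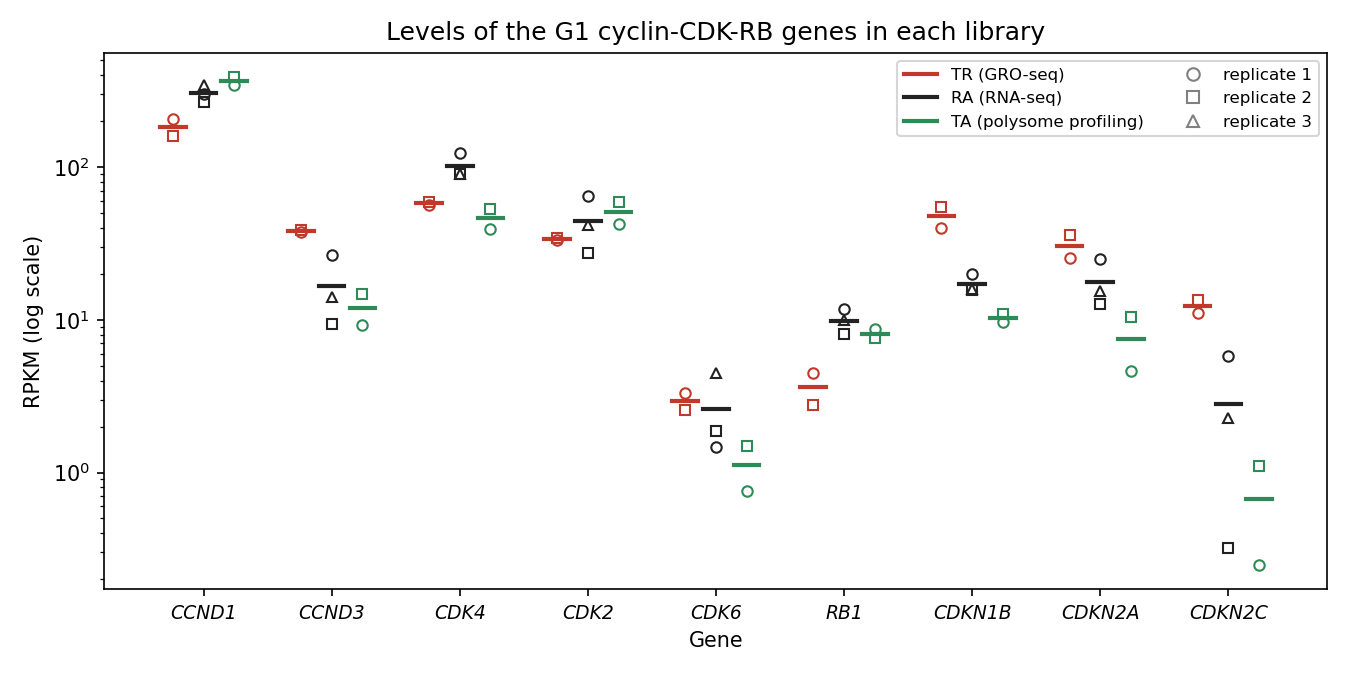
RPKM on a log scale of the 9 expressed members in each of the 7 libraries, with TR in red, RA in black and TA in green. Symbols are replicates and bars are arithmetic means. CCND1 lies highest in every library, from 159 to 387 RPKM, and CDKN2C falls from about 12 RPKM in TR to under 1 RPKM in RA replicate 2 and TA replicate 1. CCND2, at 0 in 5 of the 7 libraries, is not drawn.

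Which members gained or lost between transcription, mRNA and polysomes was read from limma on log2(RPKM + 0.1), where 9 members passed the filter on low values (mean TR, RA or TA of 1 RPKM or more) and CCND2 did not. Going from TR to RA, CCND1, CDK4 and RB1 rose while CCND3, CDKN1B and CDKN2C fell. This was 3 of 9 in each direction, against 19.2% of all expressed genes called higher and 48.0% called lower. Libraries did not overlap for 3 members that were higher and 4 that were lower, against 24.3% and 54.9% of all expressed genes. From RA to TA, CDK4, CDKN2A and CDKN1B fell and limma called 0 members higher, also at an unadjusted p under 0.05. The background was 29.2% lower and 6.66% higher, so the share of falling members, 3 of 9, was close to it. Here 3 members lay wholly below and 1 wholly above, against 43.8% and 14.4% of all expressed genes. The median member had a log2 ratio of -0.32 for RA over TR and -0.72 for TA over RA, where all expressed genes had medians of -0.58 and -0.37. Without RA replicate 1, whose MCM genes were highest, 3 members were called higher and 4 lower in RA over TR, and 1 was called lower in TA over RA. Without RA replicate 2 the counts were 3, 3 and 4, and without TA replicate 1 no member was called from RA to TA. Without TR replicate 2, 1 member was called higher and 1 lower from TR to RA, and without RA replicate 3 these counts were 2 and 1.

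The zero of these ratios depends on scaling. Centring each library on its median raised every log2 ratio by 0.67 for RA over TR and by 0.50 for TA over RA. All genes then split into 5066 higher and 4814 lower in RA over TR, in place of 2743 and 6870, and into 2713 and 1404 in TA over RA, in place of 953 and 4173. Under centring, CDK2 also rose from TR to RA (log2 ratio 0.99, adjusted p = 0.023) and CCND1 rose from RA to TA (0.77, adjusted p = 0.045), while no member fell from RA to TA. CDKN1B was then the only member that fell from TR to RA.

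**Figure D3:**
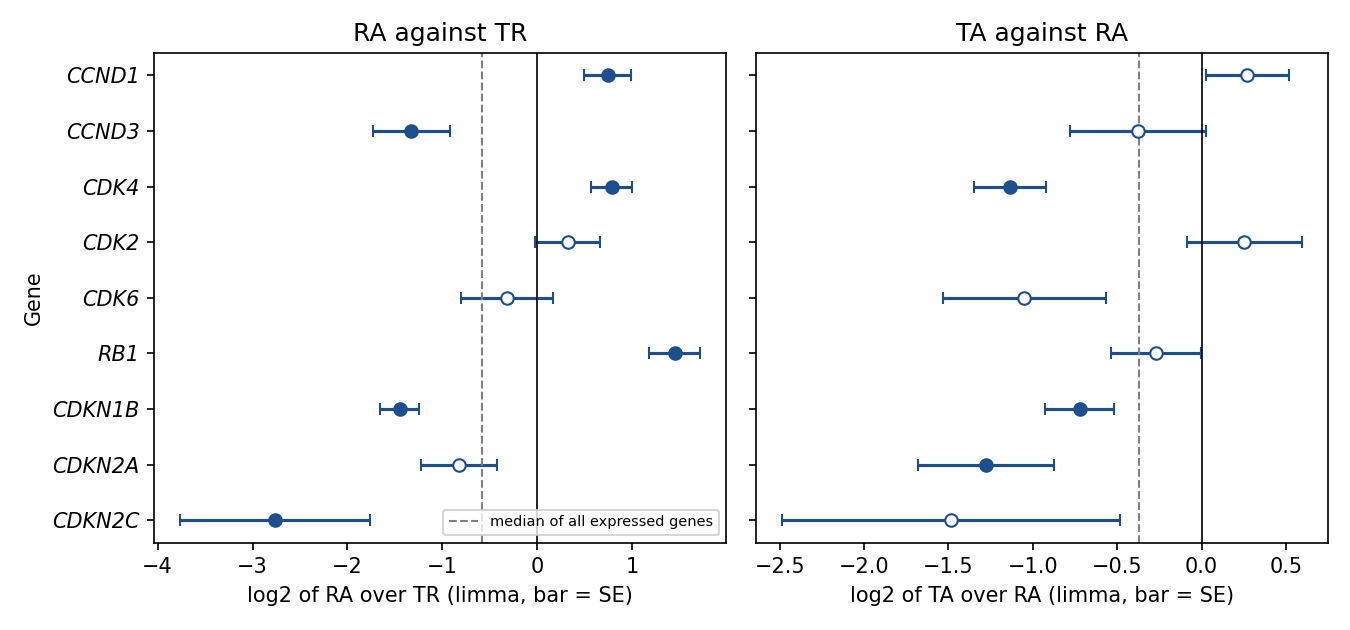
Log2 ratio of RA over TR (left) and of TA over RA (right) from limma for the 9 expressed members, with bars for the standard error. Filled points have an adjusted p under 0.05, and the dashed line is the median of all expressed genes. RB1 is the highest and CDKN2C the lowest in RA over TR.

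CCND1, which encodes cyclin D1, had TR values of 207 and 159 RPKM, RA values of 303, 266 and 346 RPKM and TA values of 346 and 387 RPKM. Each step lay above the one before without overlap, although the lowest TA library exceeded the highest RA library by less than 1 RPKM. The rise from TR to RA was 0.74 on the log2 scale (SE 0.24, adjusted p = 0.027), from 183 ± 34.3 (SD, n = 2) to 305 ± 39.7 RPKM (SD, n = 3). This call was lost without TR replicate 2 (log2 ratio 0.55, adjusted p = 0.147) and without RA replicate 3 (0.65, adjusted p = 0.089). A limma fit with replicate number as a block also lost it (0.65, adjusted p = 0.128). From RA to TA the log2 ratio was 0.27 (SE 0.24, adjusted p = 0.42). Its lowest read number in any library was 3018.

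CCND3, which encodes cyclin D3, went the other way at the first step. Its TR was 37.8 and 38.5 RPKM, and its RA was 26.4, 9.36 and 14.0 RPKM, below TR in every library. The fall was 1.33 on the log2 scale, with an adjusted p of 0.019 and an SE of 0.40. It was not called without TR replicate 1 (adjusted p = 0.128), TR replicate 2 (0.141) or RA replicate 3 (0.053), nor with centred libraries (0.160). Nor was it called with replicate number as a block in the fit (adjusted p = 0.082). TA was 9.22 and 14.7 RPKM and overlapped RA, with the lower TA library just under the lowest RA library. The log2 ratio of TA to RA, -0.38 (SE 0.40), was not called.

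CCND2, which encodes cyclin D2, was represented by 3 reads in RA replicate 2 and 2 reads in TA replicate 1, with 0 in the other 5 libraries. A floor of 3 reads corresponds to 0.136 RPKM in the smallest TR library and 0.0149 RPKM in the largest TA library. No ratio was therefore formed. These floors cover counting error only.

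CDK4 had the clearest change at both steps among the kinases. Its TR was 56.8 and 59.5 RPKM, its RA was 124, 89.96 and 90.7 RPKM, and its TA was 39.3 and 52.9 RPKM. RA was above both other parameters in every library. Reads in exons shared with TSPAN31 cannot be assigned to one strand, and their part in these values was not tested. The log2 ratio was 0.78 for RA over TR (SE 0.22, adjusted p = 0.012) and -1.13 for TA over RA (SE 0.22, adjusted p = 0.0073). The former was lost without either TR library (log2 ratios 0.75 and 0.82). The latter was lost without TA replicate 1 (log2 ratio -0.92) and with centred libraries (-0.63, adjusted p = 0.052). It was also lost with replicate number as a block in the fit (-1.21, adjusted p = 0.052).

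CDK2, the partner of cyclins E and A, had TR values of 33.2 and 34.2 RPKM and spread much further in RA, at 64.9, 27.3 and 41.9 RPKM. In TA it was at 42.3 and 59.4 RPKM. The groups overlapped, and the log2 ratios of 0.32 (SE 0.34) and 0.25 (SE 0.34) were not called. CDK6, the close relative of CDK4, was low at every step, with 3.31 and 2.57 RPKM in TR, 1.46, 1.86 and 4.499 RPKM in RA and 0.759 and 1.48 RPKM in TA. Its RA libraries were ordered differently from those of most members, with replicate 3 highest and replicate 1 lowest. Neither the log2 ratio of RA over TR, -0.32 (SE 0.48), nor that of TA over RA, -1.05 (SE 0.48), was called.

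RB1 had the highest ratio of RA over TR among the members. TR was 4.51 and 2.75 RPKM, from 73 and 74 reads, and RA was 11.7, 8.07 and 9.93 RPKM, above TR in every library. RB1 rose by 1.45 on the log2 scale (SE 0.27, adjusted p = 0.0017), from 3.63 ± 1.24 (SD, n = 2) to 9.90 ± 1.81 RPKM (SD, n = 3). It was called under each of the 16 alternatives tried, with adjusted p between 0.000158 and 0.025. TA, at 8.67 and 7.56 RPKM, overlapped RA, with replicate 2 below every RA library, and the log2 ratio of -0.27 (SE 0.27) was not called.

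The 3 inhibitor genes were lower in every RA library than in any TR library. CDKN1B had TR values of 39.9 and 55.1 RPKM, RA values of 19.9, 15.6 and 16.0 RPKM and TA values of 9.74 and 10.9 RPKM, with no overlap at either step. From TR to RA CDKN1B fell by 1.45 on the log2 scale (SE 0.20, adjusted p = 0.00035), and it too was called under each of the 16 alternatives, with adjusted p up to 0.0081. The further fall from RA to TA was 0.72 on that scale, with an adjusted p of 0.028 and an SE of 0.20. This was not called without TA replicate 1 (log2 ratio -0.64) or TA replicate 2 (-0.80). It was not called without RA replicate 1 (adjusted p = 0.051) or RA replicate 3 (0.063), nor with centred libraries (0.427). Nor was it called with replicate number as a block in the fit (0.106), or with RA and TA numbers crossed in that block (0.057).

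CDKN2A had TR values of 25.3 and 35.9 RPKM, RA values of 25.1, 12.6 and 15.4 RPKM and TA values of 4.59 and 10.5 RPKM. The highest RA library was just under the lowest TR library, and the log2 ratio of -0.82 (SE 0.40, adjusted p = 0.10) was not called, except without RA replicate 1 (-1.10, adjusted p = 0.038). From RA to TA the log2 ratio was -1.28 (SE 0.40, adjusted p = 0.041). That call was lost without TA replicate 1 (-0.69, adjusted p = 0.268), RA replicate 1 (0.083), RA replicate 3 (0.080), TR replicate 1 (0.103) or TR replicate 2 (0.103), and with centred libraries (0.157). It was also lost with no filter on low values (adjusted p = 0.066) and when only the RA and TA libraries were fitted (0.104). A fit with replicate number as a block lost it too (0.126), and 8 of 17 alternatives called it in all. Exons of CDKN2A share part of their length with the antisense gene CDKN2B-AS1.

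CDKN2C was the member whose libraries differed most. TR was 11.1 and 13.4 RPKM, RA was 5.82, 0.322 and 2.28 RPKM, and TA was 0.249 and 1.10 RPKM. All RA libraries were below both TR libraries, but RA replicate 2 rested on 18 reads and TA replicate 1 on 19 reads. The log2 ratio of RA over TR was -2.76 (SE 1.0004, adjusted p = 0.038), the lowest among the members. This value was -1.71 without RA replicate 2 (adjusted p = 0.033) and -3.62 without RA replicate 1 (adjusted p = 0.0080), and the call was lost without TR replicate 1 (0.182), TR replicate 2 (0.226) or RA replicate 3 (0.062). It was also lost with a pseudocount of 0.01 (adjusted p = 0.054) and with no filter on low values (0.057). Centred libraries (0.084) and a fit with replicate number as a block (0.095) lost it too, and 8 of 15 alternatives called it in all. A filter of 1 RPKM in each parameter left CDKN2C out. TA over RA had a log2 ratio of -1.49 (SE 1.0004, adjusted p = 0.28), which became -2.54 without RA replicate 2 (adjusted p = 0.016) and lay at -0.60 without TA replicate 1.

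Ratios between members within a library do not depend on how libraries are scaled, and they are given as descriptions. CDK4 exceeded CDK2 by 0.78 and 0.80 on the log2 scale in the TR libraries and by 0.93, 1.72 and 1.11 in the RA libraries, but was below it in both TA libraries, at -0.11 and -0.17. CDK4 thus had 2.27 times the RPKM of CDK2 in mean RA and 0.907 times in mean TA. CCND1 over CDK4 was 3.15 in mean TR, 3.01 in mean RA and 7.96 in mean TA, and every TA library was above every RA library. RB1 over CDK4 was higher without overlap at each step, going from a log2 ratio of -4.00 of the TR means to -3.36 in RA and -2.51 in TA.

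Among pairs from 1 family, CCND1 exceeded CCND3 by 4.80 times in mean TR, 18.4 times in mean RA and 30.6 times in mean TA. Every RA library was above both TR libraries for this pair, while RA and TA overlapped. CDK4 exceeded CDK6 by 19.8 times in TR, 38.9 times in RA and 41.1 times in TA, with overlap at both steps. CDKN1B over CDKN2C varied so much between the RA libraries, with log2 ratios of 1.78, 5.598 and 2.82, that no step could be separated from that spread.

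**Figure D4:**
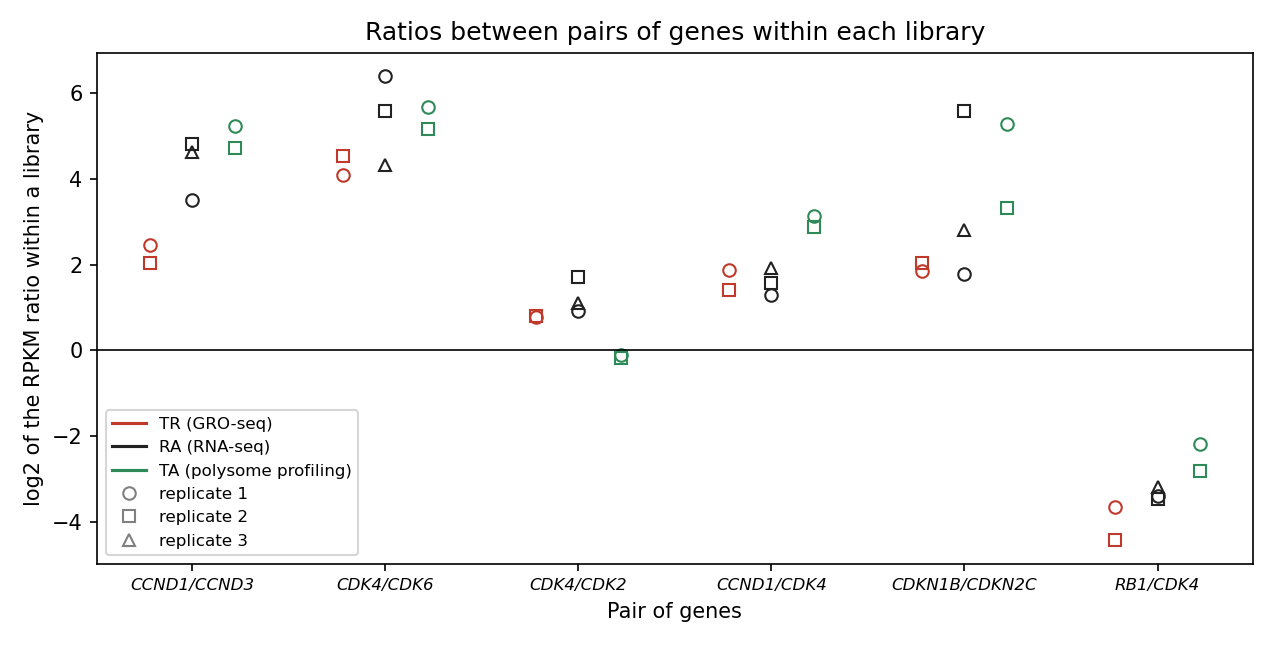
Log2 of the RPKM ratio of 6 pairs of genes in each of the 7 libraries, coloured by assay. CDK4 over CDK2 is above 0 in all TR and RA libraries and below 0 in both TA libraries, and CDKN1B over CDKN2C spreads widely in RA.

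The rest of the G1 machinery was read from 32 other genes grouped by role, all expressed. From TR to RA, 7 rose, 16 fell and 9 were not called, against 19.2% of all expressed genes called higher and 48.0% called lower. The median log2 ratio was -0.57, close to the -0.58 of all expressed genes. The largest rises were those of SKP1 (1.71, SE 0.17, adjusted p = 5.6e-05), a subunit of SCF ubiquitin ligases, and CDC37 (1.46, SE 0.27, adjusted p = 0.0017), the chaperone partner that loads kinases such as CDK4 onto HSP90. The largest falls were those of CCNE2 (-2.89, SE 0.95, adjusted p = 0.026), an E-type cyclin, and E2F2 (-2.41, SE 0.64, adjusted p = 0.010). Both also varied strongly between RA libraries, with CCNE2 at 16.9, 1.12 and 3.94 RPKM and E2F2 at 7.23, 1.33 and 3.12 RPKM. Of the 10 E2F and DP factors, 7 fell and 1 rose, with a median log2 ratio of -1.37, against 48.0% of all expressed genes called lower, 19.2% called higher and a median of -0.58.

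From RA to TA, 1 of the 32 rose, 10 fell and 21 were not called, with a median log2 ratio of -0.69. Among all expressed genes 6.66% rose and 29.2% fell, with a median of -0.37, so the share that fell was close to that background. MNAT1, the assembly factor of the CDK-activating kinase, was the one that rose, from RA values of 33.3, 42.1 and 28.3 RPKM to TA values of 80.0 and 56.5 RPKM (log2 ratio 0.98, SE 0.22, adjusted p = 0.014). The largest falls were those of SKP2 (-1.73, SE 0.43, adjusted p = 0.018), the F-box protein that targets p27, and RBL2 (-1.45, SE 0.26, adjusted p = 0.0059), a pocket protein related to RB. With centred libraries the counts were 12 rising and 5 falling from TR to RA, and 4 rising and 3 falling from RA to TA.

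**Figure D5:**
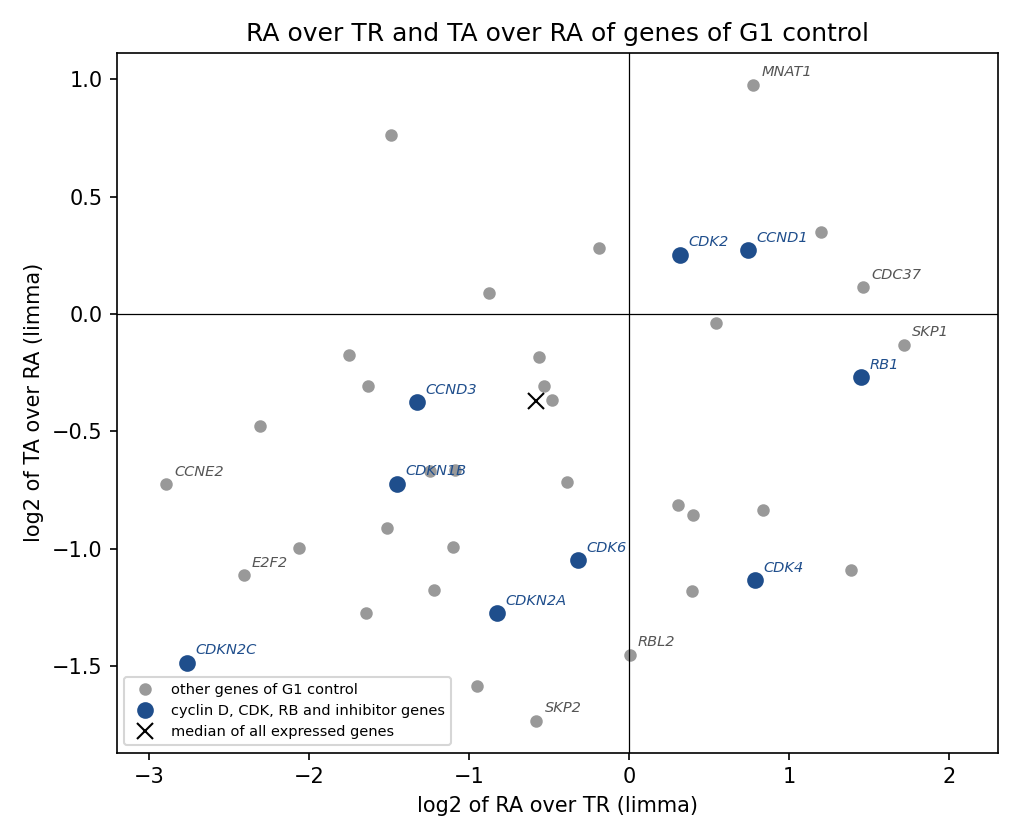
Log2 ratio of RA over TR (horizontal) and of TA over RA (vertical) from limma, for the 9 expressed members in blue and the 32 other genes of G1 control in grey. The cross marks the medians of all expressed genes, -0.58 and -0.37. CDK2 and CCND1 are the members above 0 on both axes, and CDKN2C is at the lower left.

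The genes with values most like those of CCND1, CDK4 and RB1 were found by Euclidean distance in log2(RPKM + 0.1) over the 7 libraries, among the expressed genes. For CCND1 they were CYC1, at a distance of 0.59, and PHB2, at 0.84, with a mean TA of 397 and 284 RPKM. For CDK4 they were DBI (0.44) and NHP2 (0.51), with a mean RA of 90.3 and 92.8 RPKM. For RB1 they were TDRD7 (0.73) and RAB8B (0.76).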

How the data were processed

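The authors aligned reads with TopHat, unaltered settings, against hg19, assigned them to exons by HTSeq-count and deposited the result as RPKM for each gene and library, with replicates kept apart. The submitters' processing notes name CASAVA, TopHat and HTSeq. Tool versions, counting mode, strand setting and gene annotation are not given in the sources used here. All 7 columns of the deposited RPKM values were used without further normalization. Library sizes and reads per gene were worked out from the values, since multiplying an RPKM by exon length and by library size must give whole reads. GRO-seq counts over exons alone and the depth of the TR libraries limit the precision of low genes such as RB1. The 10 members and the lists were chosen with earlier results of these data known.

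Each parameter is the arithmetic mean of its replicates. The 7 libraries were fitted together by limma 3.58.1 (R 4.3.3) on log2(RPKM + 0.1), with the moderated variance allowed a mean trend. The 14305 genes whose mean TR, RA or TA reached 1 RPKM were tested, and p-values were adjusted over them by Benjamini-Hochberg, with 0.05 as the threshold. A fold change on this scale understates the change of low genes. An exact permutation test of 3 against 2 libraries cannot go below 0.1. The limma step was run on simulated data with known shifts of RA and TA together against TR. Every gene had the same spread there, and no change from RA to TA was simulated. Named genes are all members, at most the 2 highest and 2 lowest called genes of the other G1 genes in each ratio, and the 2 nearest genes of CCND1, CDK4 and RB1. The MCM genes, E2F2 and CCNE2 between libraries, and the overlapping genes were described after the data were seen. Positions, UTRs and transcript sequences are from GENCODE 44 mapped to GRCh37. Python 3.11.15 with numpy 2.4.6, pandas 2.3.3 and matplotlib 3.10.9 was used for the rest. Sequencing lanes were shared by samples that the paper does not name, so no batch could be examined.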

Additional observations from a re-analysis of the deposited data

How the results depend on the processing

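Alternatives covered pseudocounts from 0.01 to 1, 2 filters, no trend, centring, the compared groups alone, a replicate block and each library left out. RB1 and CDKN1B kept their calls from TR to RA in all 16, and no alternative reversed a called member. Centring reversed values that were not called, for CDK6 in RA over TR (0.35) and for CCND3 (0.13) and RB1 (0.23) in TA over RA. Leaving out 1 library moved the log2 ratio of TA over RA between -0.72 and 0.023 for CCND3 and between -0.058 and 0.57 for CDK2. With centring, members called lower from TR to RA numbered 1, and from RA to TA 1 was higher and 0 lower (1 lower at an unadjusted p under 0.05 in limma), while all genes gave 5066 higher in RA over TR, and 2713 higher and 1404 lower in TA over RA. With at least 1 RPKM in each parameter, 3656 genes were lower in RA over TR. Leaving out 1 library, members called from TR to RA ranged from 1 to 3 higher and from 1 to 4 lower, and from RA to TA members called lower ranged from 0 (without TA replicate 1) to 4. Over all genes, TA over RA then gave 198 to 1030 higher and 1803 to 4228 lower. The lone TR or TA library left was assumed to vary like the other groups. In the 18 ratios between members, geometric means moved the value by less than the SD between libraries. Both depend on the same spread, so this is a weak check. The log2 ratio of CDKN1B over CDKN2C in RA was 2.61 from arithmetic means and 3.40 from geometric means.

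The paper describes log-phase cells divided among the assays, so libraries of different assays may share a culture. The labels number replicates within each assay, and nothing says that equal numbers come from the same division. The main fit treated the libraries as independent. Differences between replicates 1 and 2 correlated across genes with r = 0.085 between RA and TR and -0.50 between RA and TA. With the replicate block, 2 members (CDK4 and RB1) were called higher and 1 (CDKN1B) lower from TR to RA. From RA to TA 0 were called in either direction, where all genes gave 109 higher and 1387 lower. With RA and TA numbers crossed, chosen after the data were seen, 680 genes were higher and 3542 lower, and 2 members were lower. Depth limits CCND2, read by 0 to 3 reads a library, and CDKN2C, with 18 reads in RA replicate 2.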
